A study of Mus musculus with 4 samples.

Results

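The 10 genes described here encode the adhesion molecules of the node of Ranvier, the paranode, the juxtaparanode and the internode, with the ankyrin and the spectrin that anchor them: Cntn1, Cntn2, Cntnap1, Nfasc, Nrcam, Gldn, Cadm3, Cadm4, Ank3 and Sptbn4. They were taken by gene symbol from a table of 50593 genes, and all 10 were found there. RNA sequencing was done on the sciatic nerve of HSF V30M and HSF WT mice, with 2 mice labelled in each group, all of strain 129S1/SvImJ and 6 months of age. HSF V30M mice carry the human TTR V30M transgene, lack endogenous Ttr and are heterozygous for a deletion of Hsf-1, the heat shock factor 1 gene, while HSF WT mice carry the same heterozygous Hsf-1 deletion without the transgene. The promoter of the transgene is not given in the sources used here. The deposited table holds 1 value per gene and group, in FPKM (fragments per kilobase of transcript, scaled to library size). No spread between mice can therefore be given, and no test between the groups was run for any gene.

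Myelinated axons are divided into domains by contacts between the axon and the Schwann cell, the myelinating glial cell of peripheral nerve. At the node, gliomedin and NrCAM from the Schwann cell side bind axonal neurofascin, which ankyrin G and beta IV spectrin hold in place together with the sodium channels. At the paranode, axonal contactin-1 and Caspr face glial neurofascin and form the junction that separates nodal sodium channels from the potassium channels of the juxtaparanode. There, contactin-2 holds axon and glia together, and along the internode the nectin-like molecules Cadm3 and Cadm4 join both membranes. The cell bodies of sciatic axons lie in the dorsal root ganglia and the spinal cord, outside the nerve, whereas Schwann cell nuclei lie within it.

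The depth of the libraries was read from the FPKM of single-transcript genes, whose low values pile up at what 1 fragment is worth in each library. The 2 HSF WT libraries differed 1.35-fold in this measure and the 2 HSF V30M libraries 1.18-fold. Among the targeted genes, mouse Ttr stood at 6.10 FPKM in HSF V30M, with a listed value of 0 for HSF WT, and Hsf1 stood at 7.94 and 15.0 FPKM. Ttr thus went against the null allele, and reads of the human transgene cannot be told from those of mouse Ttr here, so this gene does not check the labels. Hsf1 was lower in HSF V30M, although both groups are described with the same heterozygous deletion, and the reason was not tested. The groups are used as labelled, and every direction given here rests on those labels. The nerve label was checked against its markers. All 10 genes of the myelinating Schwann cell list had a mean FPKM of at least 1, which is called expressed here. Mog and Opalin, which mark the oligodendrocytes of the central nervous system, were at 0.10 and 0.204 FPKM and at 0.02 and 0 FPKM, and Mobp and Hapln2 of the same list at 0.38 and 1.14 FPKM and at 0.85 and 0.0303 FPKM. Other cell types differed between the groups. All 6 skeletal muscle markers and all 4 expressed B cell markers were more than 1.5-fold lower in HSF V30M. Of the erythrocyte markers 5 of 6, and all 5 expressed neutrophil markers, were more than 1.5-fold higher. Of all expressed genes, 8.44% were lower and 8.22% higher past this fold. The T cell, mast cell, adipocyte and smooth muscle lists also held genes past it. In whole nerve, fewer cells of a type and less RNA per cell cannot be told apart.

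The DNA before the start sites of 4 of the genes is shown here, because these genes carry most of the description that follows: Cadm4 and Cadm3 were the most abundant of the 10, Gldn is the nodal ligand made by Schwann cells, and Nrcam was the only 1 of the 7 expressed genes that was lower in HSF V30M. Each line gives the 250 bases before the start of the RefSeq transcript in GRCm38.p6, read 5′ to 3′ on the strand of the gene, with motif matches in capitals. Their positions are chr7:24481773-24482022 on the plus strand for Cadm4, chr1:173367696-173367945 on the minus strand for Cadm3, chr9:54286236-54286485 on the plus strand for Gldn and chr12:44328635-44328884 on the plus strand for Nrcam.
Cadm4: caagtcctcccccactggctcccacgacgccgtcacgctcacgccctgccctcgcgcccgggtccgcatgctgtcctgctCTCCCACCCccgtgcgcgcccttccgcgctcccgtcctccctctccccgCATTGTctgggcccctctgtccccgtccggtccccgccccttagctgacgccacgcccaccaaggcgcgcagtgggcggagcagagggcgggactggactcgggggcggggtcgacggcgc
Cadm3: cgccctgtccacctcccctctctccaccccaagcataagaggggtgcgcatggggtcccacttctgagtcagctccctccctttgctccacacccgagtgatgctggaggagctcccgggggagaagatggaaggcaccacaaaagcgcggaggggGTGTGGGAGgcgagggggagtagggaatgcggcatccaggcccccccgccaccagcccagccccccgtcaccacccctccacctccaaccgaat
Gldn: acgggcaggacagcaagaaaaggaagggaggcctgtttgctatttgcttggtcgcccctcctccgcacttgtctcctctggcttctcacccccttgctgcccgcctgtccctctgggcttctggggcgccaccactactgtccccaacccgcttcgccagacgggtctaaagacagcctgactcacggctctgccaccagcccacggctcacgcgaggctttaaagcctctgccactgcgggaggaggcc
Nrcam: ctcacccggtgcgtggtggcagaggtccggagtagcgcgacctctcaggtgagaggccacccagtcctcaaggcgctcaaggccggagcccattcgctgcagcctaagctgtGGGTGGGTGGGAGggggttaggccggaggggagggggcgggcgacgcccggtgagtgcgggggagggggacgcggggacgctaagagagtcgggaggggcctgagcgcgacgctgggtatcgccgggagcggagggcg

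Words of 3 kinds were searched on both strands of RefSeq windows that run from 250 bases before to 50 bases after each start. These were the SOX words ACAAAG and ACAATG, the EGR word GNGTGGGNG, in which N is any base, and the heat shock element words GAANNTTC and TTCNNGAA. They were chosen because Sox10 and Egr2 encode the transcription factors known to drive the myelin genes of Schwann cells, and because Hsf1 is heterozygous in both groups. RefSeq gave 14 windows for 8 of the 10 genes, and Cntnap1 and Ank3 had no window. EGR words were present in 5 of the 14 windows, against 14.3% of all 32851 windows. They lay 170 bases before the start of Cadm4 on the minus strand, 94 bases before that of Cadm3, 138 and 134 bases before that of Nrcam in overlapping copies, 62 bases before that of Cntn2, and 167 and 32 bases before that of the most upstream Sptbn4 start. SOX words were present in 2 windows, 121 bases before the start of Cadm4 and 139 bases before an inner start of Cntn1, against 28.6% of all windows. A heat shock element word was present in 1 window, 23 bases past another inner start of Cntn1, against 15.1% of all windows. Neither the Gldn window nor either Nfasc window held any of these words. The windows of the 10 genes ranged from 34.7% to 77.0% G and C, beside a median of 52.7% over all windows. The 5 windows with an EGR word were all above that median, at 61.3% to 77.0%. The shares over all windows were not matched for G and C, so the EGR count is not read as an excess. These matches are letters in a window, not measured binding. The factors themselves stood at 101.9 and 74.2 FPKM (Egr2) and at 75.7 and 54.8 FPKM (Sox10) in HSF V30M and HSF WT.

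In sciatic nerve, the levels of the 10 genes spanned more than 3 orders of magnitude in either group, and the order of the genes was almost the same in both. From the highest to the lowest in HSF WT it ran Cadm4, Cadm3, Ank3, Nfasc, Gldn, Nrcam, Cntnap1, Cntn1, Cntn2 and Sptbn4. Cadm4 was the gene of rank 292 in HSF V30M and 347 in HSF WT among all genes, whereas Sptbn4 ranked 20544 and 23078. The order was the same in HSF V30M, except that Cntn1 and Cntn2 were both listed at 0.73 FPKM there and shared a rank of 16490. Cadm4 was 1707 times as high as Sptbn4 in HSF V30M and 2847 times in HSF WT, the lowest value resting on few fragments. Cadm4, known from the Schwann cell surface, was thus at the top and Gldn in the middle, while the contactins, Caspr (Cntnap1) and beta IV spectrin (Sptbn4) were at the bottom. Cadm3, best known as the axonal partner of Cadm4, had a level above every gene of the 10 but Cadm4.

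**Figure D1:**
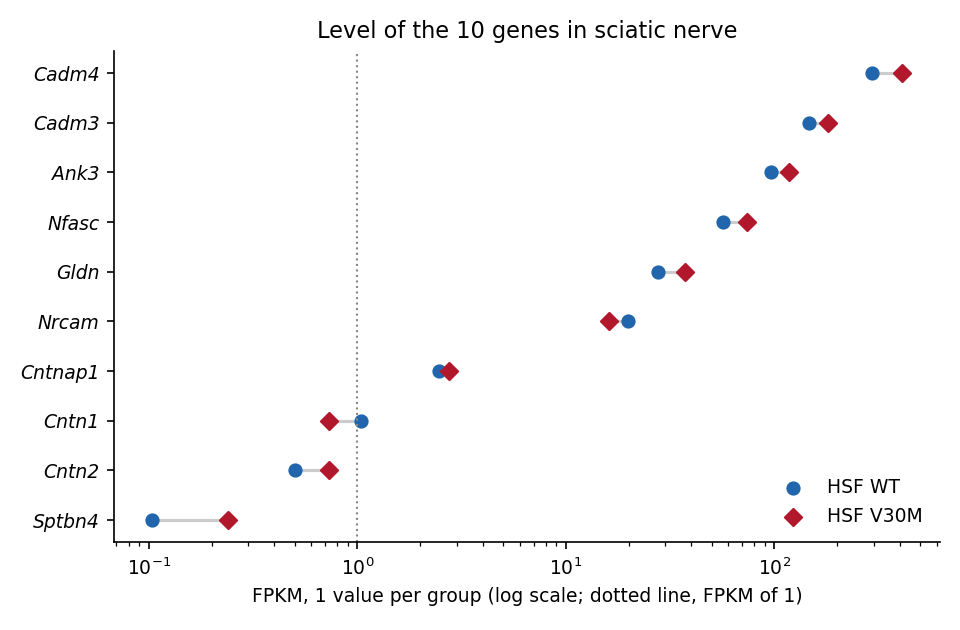
Level of each of the 10 genes in FPKM on a log axis, with 1 point per group (circles, HSF WT; diamonds, HSF V30M); each point is the authors' value for the group and has no error bar because the table holds no value per mouse. The levels run from 409.7 FPKM for Cadm4 to 0.103 FPKM for Sptbn4, and 3 genes lie around or under the dotted line at 1 FPKM.

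Differences between the groups are given as log2((HSF V30M + 1) / (HSF WT + 1)), which understates the difference of low genes, beside the plain ratio of the FPKM values. The ratio carries a 95% counting interval, from an exact binomial interval on the fragment numbers read off the FPKM. It covers counting error only and says nothing about the spread between mice. A gene entered the counts if its mean FPKM over both groups was at least 1, which 7 of the 10 genes met and Cntn1, Cntn2 and Sptbn4 did not. Of all genes, 15620 met it.

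At the node, Gldn and Nfasc were higher in HSF V30M than in HSF WT by about the same ratio. Gldn (ENSMUSG00000046167) encodes gliomedin, a ligand that Schwann cell microvilli present to the axon, and lies at chr9:54286486-54341786 on the plus strand with 1 transcript of 4658 bases in 10 exons. Its level was 37.1 FPKM in HSF V30M and 27.7 FPKM in HSF WT, a log2 ratio of 0.41. With about 3832 and 2225 fragments, the plain ratio was 1.34 with a counting interval from 1.27 to 1.41. The antisense gene Gldnos, which shares the locus, was listed at 0 and at 0.101 FPKM.

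Nfasc (ENSMUSG00000026442) encodes neurofascin and lies at chr1:132564690-132741797 on the minus strand, with 6 protein-coding transcripts of 3049 to 9739 bases. It was measured at 73.9 FPKM in HSF V30M and 56.5 FPKM in HSF WT, with a log2 ratio of 0.38. The plain ratio was 1.31 with a counting interval from 1.25 to 1.37. Neurofascin has an axonal form at the node and a glial form at the paranode, which are splice forms of the same gene, and the value per gene does not separate them. Within a group, the ratio of Gldn to Nfasc was 0.502 (HSF V30M) and 0.490 (HSF WT), with all forms of Nfasc counted as 1 gene.

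Nrcam (ENSMUSG00000020598) encodes another partner of this nodal complex, a relative of neurofascin that is shed by Schwann cells and is also present on the axon. It was the exception among the expressed genes of the group. It lies at chr12:44328885-44601964 on the plus strand and had 16.1 FPKM in HSF V30M and 19.9 FPKM in HSF WT, a log2 ratio of -0.29. HSF WT was higher by a plain ratio of 1.24 with a counting interval from 1.10 to 1.41. Nfasc was 4.60 times as high as Nrcam in HSF V30M and 2.84 times in HSF WT. The balance of these related genes thus differed 1.62-fold between the groups, while neither gene alone was past 1.5-fold. No counting interval was computed for the balance. Nrcam has 7 protein-coding transcripts, of which 3 are longer than 1000 bases, and a shift in transcript use could not be read from the table.

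The nodal scaffold was represented by a high and a barely detected gene. Ank3 (ENSMUSG00000069601) encodes ankyrin G, which links neurofascin and sodium channels to the spectrin skeleton and is also used at membranes outside the axon. It lies at chr10:69398773-70027438 on the plus strand and has 31 protein-coding transcripts. Ank3 stood at 118.0 FPKM in HSF V30M and 96.7 FPKM in HSF WT, with a log2 ratio of 0.28. Because its transcripts range so widely in length, the fragments could only be placed between 2216 and 26653 in HSF V30M, and the counting interval of the plain ratio of 1.22 was set by the lower number and ran from 1.14 to 1.31.

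Sptbn4 (ENSMUSG00000011751), at chr7:27356383-27447686 on the minus strand, encodes beta IV spectrin of the axonal node. It was listed at 0.24 FPKM in HSF V30M and 0.103 FPKM in HSF WT, which stand for 25 to 47 and 8 to 16 fragments. The log2 ratio was 0.17, and the plain ratio of 2.32 had a counting interval from 1.06 to 6.24, too wide to place the size of the difference. Shkbp1, with 7.97 and 6.58 FPKM, shares the locus of Sptbn4 in the table, and whether the authors counted by strand is not given in the sources used here. Within a group, Ank3 was 492 times as high as Sptbn4 in HSF V30M and 937 times in HSF WT.

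At the paranode, the axonal side of the junction was low in both groups. Neither of its genes had a counting interval clear of equal levels, although that of Cntn1 was taken at its lower fragment numbers only. Cntnap1 (ENSMUSG00000017167) encodes Caspr and lies at chr11:101170523-101190724 on the plus strand, with 1 protein-coding transcript of 5440 bases in 24 exons. It was at 2.76 FPKM in HSF V30M and 2.46 FPKM in HSF WT, from about 335 and 232 fragments. The log2 ratio was 0.12 and the plain ratio 1.12, with a counting interval from 0.948 to 1.33. Plekhh3, which lies on the other strand and overlaps Cntnap1, was higher than Cntnap1 itself, with 8.27 and 6.96 FPKM, and if strand was not used, fragments of the 2 genes cannot be told apart in their shared stretch.

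Cntn1 (ENSMUSG00000055022) encodes contactin-1, the partner that Caspr needs to reach the axonal surface, and lies at chr15:92051165-92341967 on the plus strand. Its level was 0.73 FPKM in HSF V30M and 1.04 FPKM in HSF WT, from 64 to 92 and from 70 to 102 fragments, with a log2 ratio of -0.23. HSF WT was higher by a plain ratio of 1.42, with a counting interval from 0.987 to 2.004. The pair therefore lay on opposite sides of equal levels. Cntnap1 was 3.78 times as high as Cntn1 in HSF V30M and 2.37 times in HSF WT. The counting interval of Cntnap1 held equal levels. That of Cntn1 only just held them at its lower fragment numbers, 64 and 70. No interval was computed at its higher numbers, 92 and 102, so its difference is left undecided by counting. Nfasc, whose value holds both its glial and its axonal form, was 26.8 times as high as Cntnap1 in HSF V30M and 23.0 times in HSF WT.

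At the juxtaparanode, Cntn2 (ENSMUSG00000053024) encodes contactin-2, also known as TAG-1, which both axons and myelinating glia can make. It lies at chr1:132509427-132543256 on the minus strand, 21.4 kb from the nearer end of Nfasc. Its 0.73 FPKM in HSF V30M and 0.502 FPKM in HSF WT stand for about 118 and 63 fragments of its 7177-base transcript. The log2 ratio was 0.20, and the plain ratio of 1.45 had a counting interval from 1.06 to 2.01. Despite the short distance between the 2 genes, Nfasc was 101 times as high as Cntn2 in HSF V30M and 113 times in HSF WT. The axonal partner of contactin-2, Cntnap2, was also low, with 0.73 and 0.147 FPKM, while the potassium channel Kcna1 that the complex gathers stood at 138.5 and 125.0 FPKM.

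Along the internode, both nectin-like molecules were abundant and higher in HSF V30M. Cadm4 (ENSMUSG00000054793), the main nectin-like molecule of the Schwann cell surface, lies at chr7:24482023-24504539 on the plus strand with 1 protein-coding transcript of 2161 bases in 9 exons. It had 409.7 FPKM in HSF V30M and 293.9 FPKM in HSF WT, and its log2 ratio of 0.48 was the highest of the 7 expressed genes. About 18622 and 10396 fragments gave a plain ratio of 1.39 with a counting interval from 1.36 to 1.43. This interval was the narrowest of the 10, and it lay below 1.5. The intervals of genes with several long coding transcripts were set by their lower fragment numbers, so the narrowness of this 1 does not rank the genes by fragments.

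Cadm3 (ENSMUSG00000005338), at chr1:173333258-173367695 on the minus strand, encodes the molecule on the axonal membrane that Cadm4 binds. It stood at 180.0 FPKM in HSF V30M and 147.1 FPKM in HSF WT, with a log2 ratio of 0.29 and a plain ratio of 1.22, whose counting interval ran from 1.19 to 1.26. Ackr1, a chemokine receptor on the same strand that overlaps Cadm3, was far lower, with 19.0 and 13.9 FPKM. Within a group, Cadm4 was 2.276 times as high as Cadm3 in HSF V30M and 1.998 times in HSF WT.

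**Figure D2:**
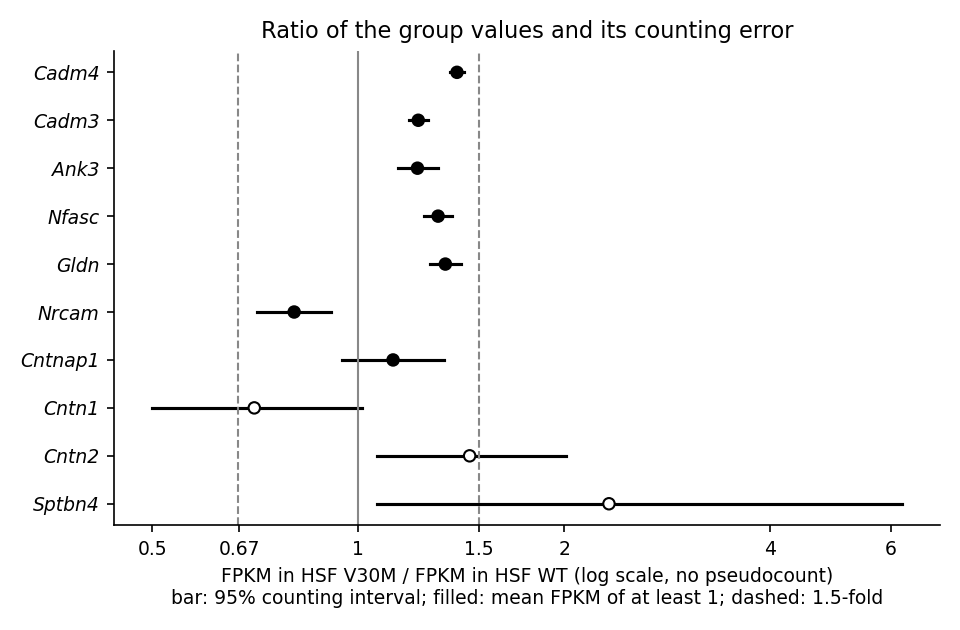
Plain ratio of the FPKM in HSF V30M over HSF WT for each of the 10 genes on a log axis, with bars for the 95% counting interval, which holds no spread between mice. Filled points are the 7 genes whose FPKM averaged 1 or more; Cadm4, Gldn, Nfasc, Cadm3 and Ank3 lie between equal levels and the dashed line at 1.5-fold, Nrcam lies below equal levels, and the widest bar, from 1.06 to 6.24, belongs to Sptbn4.

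Over the 7 expressed genes, 6 were higher in HSF V30M than in HSF WT and 1, Nrcam, was lower. Centred on the Schwann cell lineage markers, 5 of 7 were above 0, with Cntnap1 at -0.029 and the median of all genes at -0.15. The share of all genes above 0 was not computed under that centring. Without it, 50.4% of all 15620 genes had a log2 ratio above 0. None of the 7 genes was past a 1.5-fold difference on the log2(FPKM + 1) scale in either direction, where 16.7% of all genes were, 8.22% being higher in HSF V30M and 8.44% lower. The median log2 ratio of the 7 genes was 0.29, beside a median of 0.00 over all genes, whose middle 50% ran from -0.22 to 0.23 and whose middle 90% ran from -0.86 to 0.81. Cadm4, Gldn, Nfasc, Cadm3 and Ank3 thus lay above the upper quartile of all genes and inside the middle 90%, while Nrcam lay below the lower quartile. When the 3 low genes were counted too, 8 of 10 were higher and 2, Nrcam and Cntn1, were lower. The 10 genes summed to 839 FPKM in HSF V30M and 646 FPKM in HSF WT, a sum that Cadm4 and Cadm3 dominate.

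**Figure D3:**
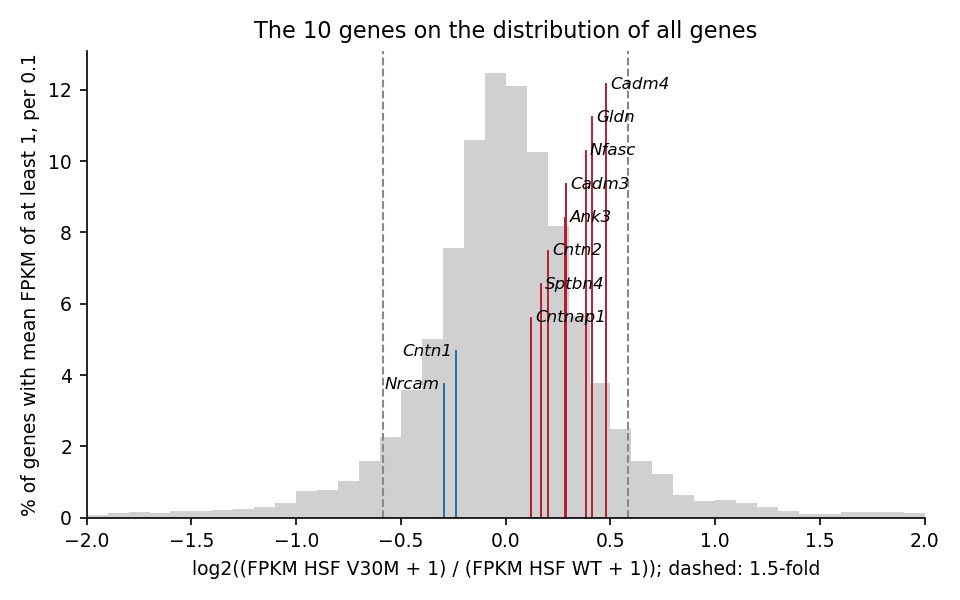
Log2 ratio (HSF V30M over HSF WT, with 1 FPKM added to each value) for all genes averaging 1 FPKM or more (grey bars, percent of genes per 0.1) and for the 10 genes (vertical lines, red above 0 and blue below; line height only spaces the names). No line reaches the dashed 1.5-fold marks, the highest with 1 FPKM added being Cadm4 at 0.48 and the lowest Nrcam at -0.29.

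Markers of the cells that carry these molecules were read beside them. The myelinating Schwann cell list had 5 genes above and 5 below a log2 ratio of 0, a median of 0.07, and a summed level of 13321 FPKM in HSF V30M and 11866 FPKM in HSF WT. The 5 genes of the Schwann cell lineage list had a median of 0.15, with only S100b past 1.5-fold, at 328 and 201 FPKM. The 6 genes of the non-myelinating Schwann cell list had a median of -0.07, with 3 above and 3 below 0. Past 1.5-fold there were Gfap, lower in HSF V30M at 2.28 and 8.77 FPKM, and Cdh2, higher at 13.3 and 7.84 FPKM. The neuron list summed to 121 and 68.4 FPKM. Its 9 expressed genes had a median of 0.34, with 6 above and 3 below 0. Past 1.5-fold were 3 of the 9, all higher in HSF V30M (Uchl1, Rbfox3 and Tubb3), beside 8.22% of all genes in that direction. Most of the sum was Uchl1, at 87.0 and 43.4 FPKM. Stmn2, Gap43 and Snap25 were lower in HSF V30M, with log2 ratios of -0.43, -0.35 and -0.02, and the neurofilament genes Nefl, Nefm and Nefh were at 1.68 and 1.45, 0.39 and 0.215, and 1.45 and 0.657 FPKM. The skeletal muscle list summed to 41.8 FPKM in HSF V30M and 160.0 FPKM in HSF WT. The part of any of these in the values of the 10 genes was not tested.

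The known partners of these molecules were read on the same scale. Of 49 partner genes in 5 lists by place along the axon, 42 had a mean FPKM of at least 1, with 22 above and 20 below a log2 ratio of 0 and a median of 0.00. Past 1.5-fold were 4 of the 42 (9.52%), 3 higher in HSF V30M and 1 lower, beside the 16.7% of all genes. Centred on the Schwann cell lineage markers, an alternative chosen after seeing the data, 5 were past it, 2 higher and 3 lower. The share of all genes was 18.5% under that centring.

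Among the nodal channels and spectrins, the median log2 ratio of 6 expressed genes was 0.14, and 2 were past 1.5-fold. Scn8a, the main sodium channel of mature nodes, was at 2.97 FPKM in HSF V30M and 1.35 FPKM in HSF WT, a log2 ratio of 0.76. The broadly used spectrins Sptan1 and Sptbn1 were high and nearly level, with 260.9 and 275.3 FPKM and with 321.8 and 306.0 FPKM, and Sptbn1 was 1341 times as high as Sptbn4 in HSF V30M.

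Among the genes of the Schwann cell microvilli and the nodal matrix, which face the node and hold gliomedin there, 8 were expressed and the median was 0.06. Sdc3, a heparan sulphate proteoglycan of microvilli, had 89.4 FPKM in HSF V30M and 51.8 FPKM in HSF WT. Its log2 ratio of 0.78 was the highest of all expressed partner genes. The related Sdc4 lay the other way, at 120.4 and 165.3 FPKM, with a log2 ratio of -0.45 that did not pass 1.5-fold.

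Among the 13 genes of the paranodal loop and its junctions, all expressed, the median was 0.04. Ank1, an ankyrin best known from erythrocytes and muscle, was the only partner past 1.5-fold in the lower direction, at 1.48 FPKM in HSF V30M and 2.90 FPKM in HSF WT, with a log2 ratio of -0.65. The skeletal muscle markers were also lower in HSF V30M, with a list median of -2.07, and the erythrocyte markers were higher, with a list median of 1.40. Their part in the Ank1 value was not tested. Of the glial junction genes, Gjb1, which encodes the connexin of Schwann cell incisures and paranodes, was at 83.4 and 62.5 FPKM (log2 ratio 0.41) and Cldn19, the claudin of the Schwann cell junctions, at 188.8 and 240.2 FPKM (log2 ratio -0.35).

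Neither the juxtaparanodal nor the internodal list had an expressed gene past 1.5-fold. Cntnap2, under the minimum, had a log2 ratio of 0.59. The 8 expressed juxtaparanodal genes had a median of -0.04, with Kcna1 and Kcna2 at log2 ratios of 0.15 and 0.20 and the adhesion receptor Adam23 highest at 0.40. The 7 internodal genes had a median of -0.02. Cadm1, which like Cadm4 is a nectin-like molecule of Schwann cells, was at 25.7 FPKM in HSF V30M and 36.3 FPKM in HSF WT, a log2 ratio of -0.48. Cadm4 and Cadm1 therefore lay on opposite sides of 0. Cadm4 was 16.0 times as high as Cadm1 in HSF V30M and 8.10 times in HSF WT, a 1.97-fold difference in their balance. This pair joins the highest log2 ratio of the 7 expressed genes to the lowest of the internodal list. Neither gene was past 1.5-fold, and no counting interval was computed for the balance. Cadm2, an axonal relative, was at 16.9 and 13.4 FPKM.

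**Figure D4:**
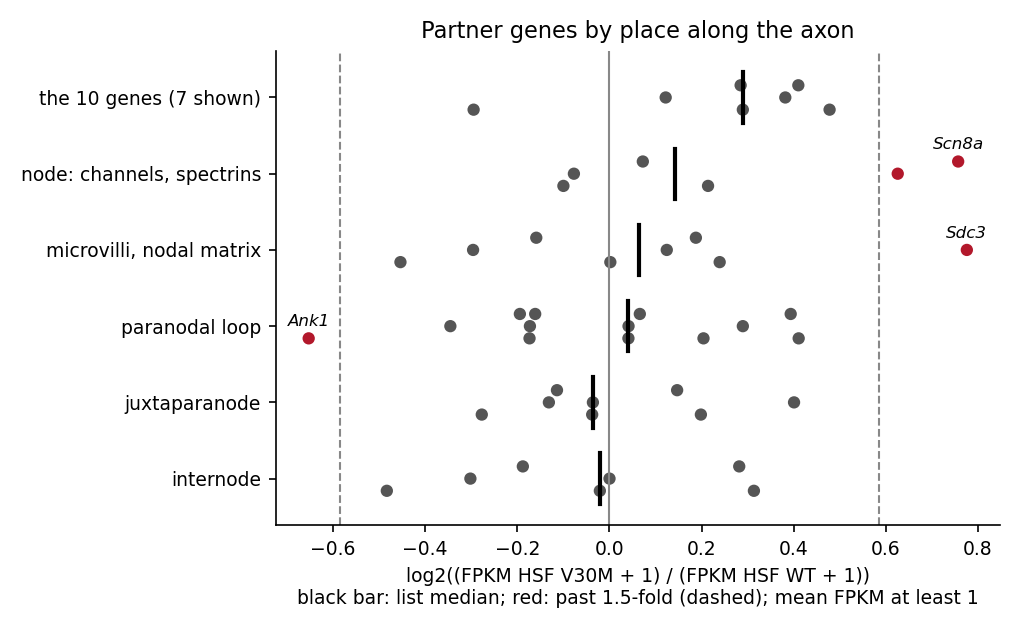
Log2 ratio (HSF V30M over HSF WT, with 1 FPKM added to each value) for the 7 expressed genes of the 10 and for 42 partner genes in 5 lists, each point being a gene that averaged 1 FPKM or more and each black bar a list median. The medians run from 0.29 for the 7 expressed genes of the 10 to -0.04 for the juxtaparanodal list. In red, 4 partner genes lie past the dashed lines at 1.5-fold, with Scn8a, Sdc3 and Ank1 named.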

How the data were processed

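Sciatic nerve RNA was isolated with RNeasy columns and turned into cDNA, and libraries followed Ion Torrent protocols. Reads were aligned to Ensembl GRCm38, based on C57BL/6J, and the submitters' processing notes name STAR, Cufflinks and Cuffdiff. Their versions, the annotation and the use of strand are not given in the sources used here. The authors deposited 1 FPKM value per gene and group from Cuffdiff, written with decimal commas and, for HSF V30M, with 2 decimals. The table also holds the authors' fold change, p-value and q-value, which were not used. Each group has 2 labelled mice, whereas n = 4 stands in the methods without saying whether this is per group.

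Genes with too many alignments (23) were left out. Log2 ratios were computed with a pseudocount of 1 FPKM and a minimum mean of 1 FPKM, and 1.5-fold was the limit. All 10 genes, every partner gene past that limit, and relatives and markers by level were named; other partners were named after their values were seen, and some genes that the rule names are not reported here. The members and lists were chosen with earlier results of these data known. Fragment numbers came from single-transcript genes with 195 bases taken from the length. Of the low values, 58.9% of 1836 in HSF WT and 43.1% of 541 in HSF V30M lay within 2% of 1 fragment of either library, worth 0.0484 or 0.0652 and 0.0399 or 0.0472 FPKM times kilobases. The fragment numbers assume that the group value is the mean of the 2 libraries and that a gene has the same level in both. For genes with several transcripts, they range from the shortest coding transcript over 1000 bases to the longest, and the lower number set the interval. Positions and transcripts are those of GENCODE release M21 (GRCm38), which holds 50369 of the gene identifiers, and promoter windows are those of RefSeq (GRCm38.p6). Steps were tested on simulated data. The tools were pandas 2.3.3, matplotlib 3.10.9, numpy 2.4.6 and scipy 1.17.1 under Python 3.11.15.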

Additional observations from a re-analysis of the deposited data

How the results depend on the processing

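No paired analysis was possible because each group has only its pooled value, and for the same reason no replicate could be left out. The alternatives were a pseudocount of 0.1, no minimum or a minimum mean of 5 FPKM, median-of-ratios scaling, an equal sum over protein-coding genes, centring on the myelinating Schwann cell markers and a fold over 2. Centring on the Schwann cell lineage markers, and no pseudocount with no minimum, were chosen after seeing the data. The median log2 ratio over those of the 10 genes that entered was 0.24 without a minimum, 0.22 centred on the myelinating Schwann cell list and 0.14 centred on the lineage list, where 5 of 7 were above 0 and the median of all genes moved to -0.15. There, Cntnap1 turned from 0.12 to -0.029. It was 0.34 with a minimum of 5 FPKM. None of the 10 genes that met the minimum passed the fold under any of these. Without pseudocount and minimum 1 of the 10 genes, Sptbn4, did, where 33.6% of all genes with a value in both groups were past it. Sptbn4, under the minimum, also had a log2 ratio of 0.74 with a pseudocount of 0.1. The number of partner genes past the fold was 2 of 35 with a minimum of 5 FPKM, beside 13.5% of all genes. With a fold over 2 it was 0 of 42, beside 7.92%. Without pseudocount and minimum it was 8 of 49, a smaller share than the 33.6% of all genes with a value in both groups. It was 5 under lineage centring, 2 higher and 3 lower. Lineage centring set the share of all genes past 1.5-fold at 5.88% higher and 12.6% lower. Of 60 values of single genes under 6 alternatives, 48 stayed within their counting interval, 11 moved beyond it and 1 changed sign. All that moved or changed sign did so when centred on the myelinating Schwann cell or the lineage markers. The values without pseudocount are the plain ratios on which the intervals are built, so they could not leave them. Depth limits Sptbn4, Cntn1, Cntn2 and Cntnap1, whose intervals are the widest.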

Other observations

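The relatives of the 10 genes differed in which members the nerve held. The contactins Cntn3, Cntn4, Cntn5 and Cntn6, cell surface molecules related to Cntn1 and Cntn2, were low, the highest being Cntn5 at 0.43 FPKM in HSF V30M and 0.384 FPKM in HSF WT, so no contactin stood above 1.04 FPKM in either group. The Caspr relatives were lower than Cntnap1 in both groups: Cntnap4 was at 0.01 and 0.0661 FPKM, Cntnap5a at 0.03 and 0.00447 FPKM and Cntnap5b at 0.04 and 0.0338 FPKM, while Cntnap3 is listed at 0 in HSF WT and Cntnap5c at 0 in HSF V30M. The relatives of neurofascin and NrCAM were well expressed and lay on opposite sides of 0, L1cam at 28.1 and 22.9 FPKM (log2 ratio 0.28) and Chl1 at 17.1 and 21.3 FPKM (log2 ratio -0.30). Chl1 and Nrcam thus had nearly the same log2 ratio, with no test of either. Among the other spectrins, Sptb was at 60.1 and 48.7 FPKM and Sptbn5 at 41.9 and 40.3 FPKM. Ank2, which encodes ankyrin B of the glial paranode, was at 42.2 and 48.4 FPKM (log2 ratio -0.19), the other side of 0 from Ank3.

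In whole-nerve RNA, the juxtaparanodal channel gene Kcna1 was far above Cntnap2. Kcna1 was 190 times as high as Cntnap2 in HSF V30M and 853 times in HSF WT. Cntnap2 itself was 4.98 times as high in HSF V30M as in HSF WT, at levels under 1 FPKM. These ratios rest on 0.147 FPKM of Cntnap2 in HSF WT, for which no fragment number or counting interval was computed. In the data, 28 other genes share the locus of Cntnap2. The table holds no value per cell type.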
